A study of Mus musculus with 2 samples.

Results

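The citric acid cycle burns acetyl groups in the mitochondrial matrix, and fatty acid oxidation supplies them by shortening acyl chains that enter through the carnitine shuttle. Both hand electrons to the respiratory chain, the latter partly through the electron transfer flavoprotein. In macrophages these routes are widely studied because activation by microbial products is known to interrupt the cycle, while alternatively activated cells rely on oxidation. The genes described here encode 36 enzymes of these routes and were chosen by symbol for their place in the pathways. They were measured with 82 probe sets that the platform annotation assigns to exactly 1 gene. The 36 genes are part of 18193 genes that the array names in this way.

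RNA came from mouse peritoneal macrophages of C57BL/6J animals aged 8 weeks, with 1 Affymetrix array per group. The resident group held macrophages labelled as resident in the cavity, and the labels attach the same injection protocol to both samples, so that resident mice went without it is read from the group's name alone. The elicited group came from mice that had received 1 mL of 3% thioglycollate into the peritoneal cavity 3 days earlier, a sterile irritant that draws in monocytes. In both groups cells were left to adhere for 2 h and then washed per the labels' protocols, while the series description speaks of overnight culture, and these 2 accounts of the culture time were not reconciled. How many mice gave the RNA of either array is not stated in the labels. With no replicate, no difference between the groups was tested, and values are described against a 2-fold threshold. Having 1 array a group limits how precise any of them can be.

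Signals are linear intensities, and a gene takes the values of whichever of its probe sets was brightest on average (mean log2 signal). A signal of 82.2, the 95th percentile of probe sets for smell and taste receptors and keratin-associated proteins, served as the floor. Lower signals were raised to it before a ratio was taken, so such a ratio is a bound, and it is counted as past 2-fold only where the bound is. The only repeated measure was the spread of log2 ratios between probe sets of the same gene, with a pooled SD of 0.48 (1.40-fold) over 4466 genes, which covers probes and not animals or cultures. The 3' to 5' signal ratio of beta-actin was 1.19 in resident and 1.22 in elicited cells, and that of Gapdh was 0.59 and 0.60.

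All 11 macrophage markers were above the floor on both arrays, with summed signals of 210675 in resident and 227482 in elicited cells. Single markers moved both ways, with 1 higher by 2-fold or more (Fcgr1, 2.55-fold) and 2 lower (Cd14, 2.73-fold, and Itgam, 2.99-fold). Markers of other cells differed between the arrays. The summed signal of 11 B cell markers was 27012 in resident and 5029 in elicited cells, where Cd79a, Fcrla, Ebf1 and Pou2af1 were below the floor. Of these markers Cd22 (2269 and 4078) and Pax5 (141 and 159) were higher in elicited cells, and without Cd22 the other 10 summed to 24743 and 951. That of 12 mesothelial and fibroblast markers was 730 and 16446, with 4 passing the floor in resident and 11 in elicited cells. Mast cell markers were above the floor in 5 of 7 in resident and 0 of 7 in elicited cells, and dendritic cell markers in 4 of 7 and 0 of 7. T cell markers summed to 751 and 411. Neutrophil markers summed to 12071 and 8437, with 3 of 9 above the floor on each array. Eosinophil markers summed to 543 and 1145, with Siglecf the only 1 of 5 above the floor in elicited cells. The 12 markers of resident large peritoneal macrophages summed to 127866 and 6673. The 7 proliferation markers summed to 10592 and 26475, and to 2126 and 2587 without Pcna. Of the 7, 5 were higher by 2-fold or more, while Mki67 was 3.23-fold and Mcm2 1.52-fold lower. The part of these cells in the values below was not tested, and in bulk RNA fewer cells of a type and less RNA per cell cannot be told apart.

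The genes of both routes were expressed at similar signals on the 2 arrays. The floor was passed by 36 of 36 in resident and by 35 in elicited cells, the exception being Pcx. Of the 36, 1 was higher in elicited cells by 2-fold or more (Etfb, 2.78%) and 1 was lower by that much (Pcx, 2.78%). Of the 11499 genes of the array that passed the floor, 8.04% were higher and 11.8% lower by 2-fold or more. At a 1.5-fold threshold 6 of the 36 genes (16.7%) were higher, against 18.4% of all genes, and 1 (2.78%) was lower, against 23.1%. The share of higher genes at 1.5-fold was thus near that of all genes. The log2 ratio lay within 1 SD of the probe-set spread in 26 of the 36 genes (72.2%), against 51.2% of all genes.

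**Figure D1:**
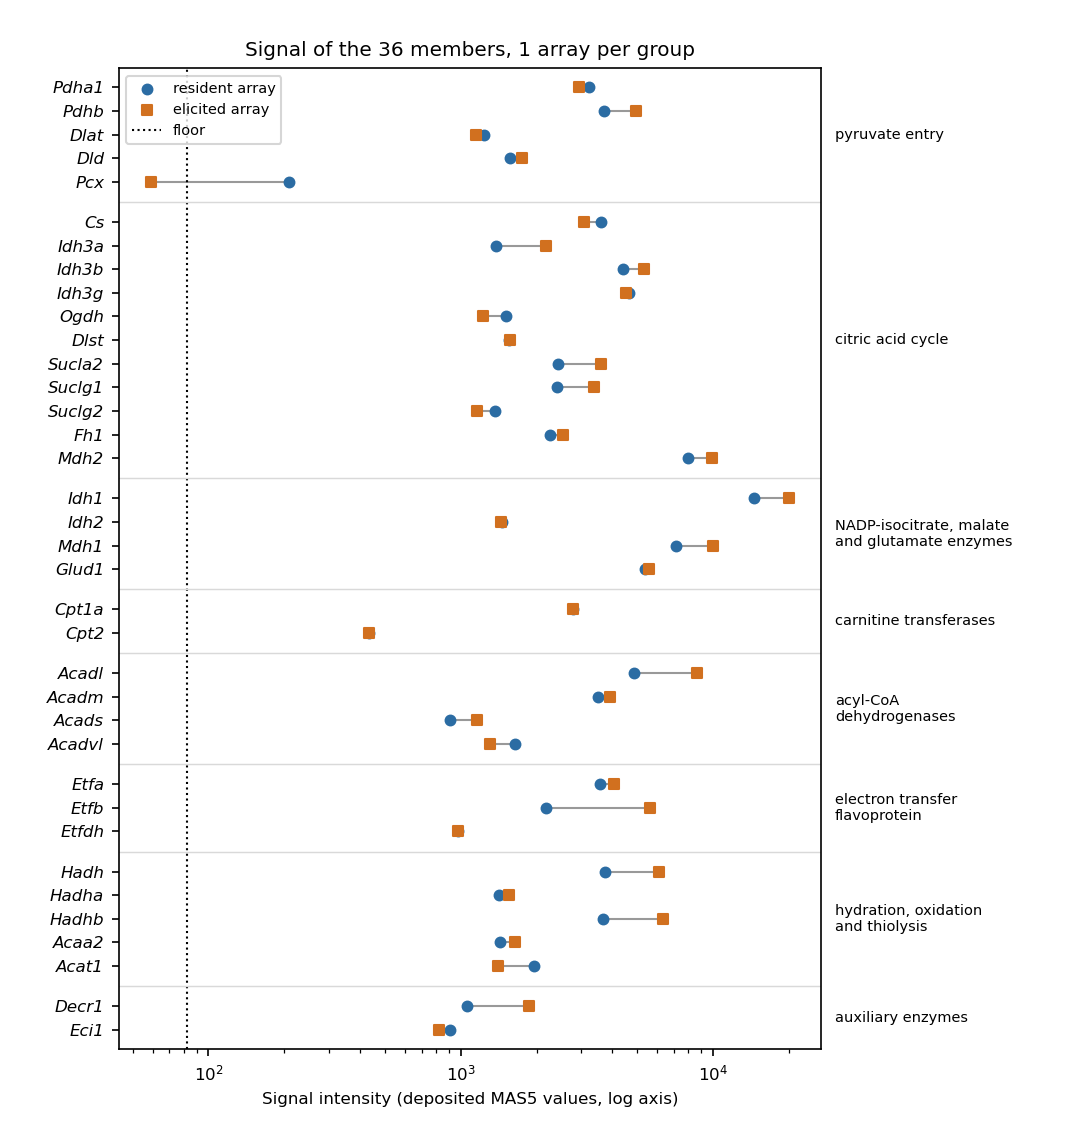
Signal intensity (log axis) of the 36 genes on the resident array (circles) and the elicited array (squares), 1 array per group, in the order of their roles, with the floor of 82.2 as a dotted line. Most pairs of points lie close together, Etfb is the pair farthest apart above the floor, and Pcx is the only gene with a point below it.

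The median log2 ratio of the 36 genes was 0.16, beside -0.03 for all genes above the floor, with 23 genes above 0 and 13 below. The ratio of all genes varied with signal. When all genes were ordered by mean signal, their median log2 ratio was -0.24 in decile 3 and 0.41 in the brightest decile. The share at least 2-fold lower was 16.4% and 4.07% in these deciles, and the share at least 2-fold higher 6.52% and 12.9%. The shares of all genes given above were not matched for signal. Of the 35 genes measured on both arrays, 23 lay in the top 3 deciles. Set against the median of their own decile, 18 of these 35 genes were higher and 17 lower, with a median difference of 0.03. After a loess trend on signal was removed, the median of the 36 genes was 0.04 and that of all genes 0.07.

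**Figure D2:**
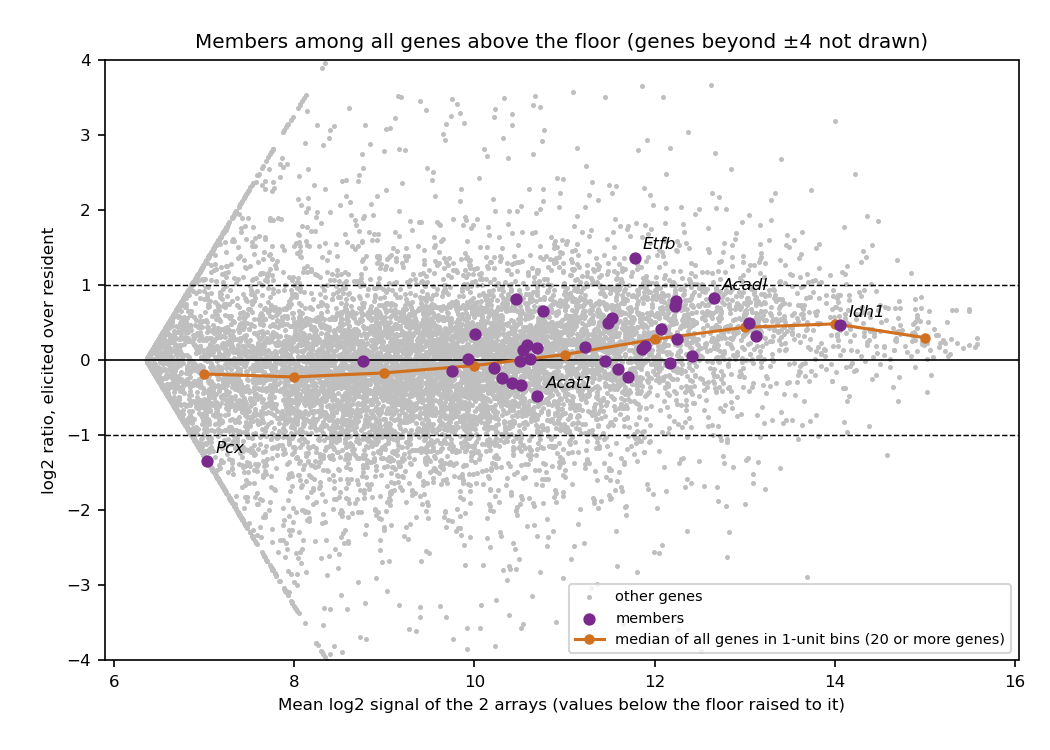
Log2 ratio of elicited over resident signal against the mean log2 signal of both arrays, for the 36 genes (large points) and all other genes above the floor (small points), with 67 genes beyond a log2 ratio of 4 in either direction not drawn. The line joins medians of all genes in bins of 1 log2 unit, and most of the 36 genes lie near it, with Etfb above the 2-fold line and Pcx below it.

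Pyruvate reaches the cycle through the pyruvate dehydrogenase complex or through pyruvate carboxylase. Pdha1, the alpha subunit of the complex's first enzyme, had signals of 3221 in resident and 2952 in elicited cells (log2 ratio -0.13). Its beta subunit gene Pdhb had 3711 and 4945 (0.41). Dlat, the acetyl-transferring core, had 1238 and 1147 (-0.11), and Dld, the flavoprotein that this complex shares with the 2-oxoglutarate dehydrogenase complex, had 1565 and 1751 (0.16). By these probe sets the subunits spanned 0.54 log2 units. That is below 0.68, which is 1 SD of a difference between 2 genes given the probe-set spread. A further bright Pdha1 probe set had 1474 and 835 (-0.82). Other probe sets gave -0.02 and -0.53 for Dlat and -0.28 for Pdhb, so the span depended on the probe sets chosen.

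Pcx encodes pyruvate carboxylase, which makes oxaloacetate and so refills the cycle. Its signal was 209 in resident and 59.0, below the floor, in elicited cells, a difference of at least 2.54-fold. Pcx was dim on both arrays and its 5 probe sets did not point one way. The other 4 are control probe sets of the array along the same transcript. The 3' one had 146 and 8.66, while the 5' one had nearly equal signals (log2 ratio -0.14). Of the pair from the middle, 1 had 89.5 and 115 and the other was below the floor on both arrays (63.5 and 12.1). With the floor at the 99th percentile (174) the log2 ratio of Pcx was -0.26, and with the mean of its probe sets -0.64, so the difference past 2-fold rested on 1 dim probe set and on the choice of floor. Pcx has 2 annotated starts in the RefSeq table (GRCm38.p6). The 250 bases before the upstream one are shown because Pcx is the only one of the 36 genes lower by 2-fold (chr19:4510222-4510471, plus strand), with capitals marking GGGCGG, a motif of the factor SP1.
Pcx: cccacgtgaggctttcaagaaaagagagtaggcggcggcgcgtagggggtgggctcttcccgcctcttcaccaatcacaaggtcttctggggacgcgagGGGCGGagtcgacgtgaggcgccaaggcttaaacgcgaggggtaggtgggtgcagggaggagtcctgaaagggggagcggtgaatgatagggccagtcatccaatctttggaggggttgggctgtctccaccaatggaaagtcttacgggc

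Citrate synthase, isocitrate dehydrogenase 3 and the enzymes after them turn the cycle, and their 11 genes were all within 2-fold. Cs, which joins acetyl-CoA to oxaloacetate, had signals of 3614 and 3092 (log2 ratio -0.23), and its 3 probe sets lay between -0.23 and 0.07. Isocitrate dehydrogenase 3 makes NADH from isocitrate and is built of 3 subunits. Idh3a, the catalytic subunit, had 1384 and 2172 (0.65), Idh3b 4410 and 5350 (0.28), and Idh3g 4649 and 4541 (-0.03). The value of Idh3a rested on its brightest probe set, since the other probe sets above the floor gave 0.15 and -0.53.

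The 2-oxoglutarate dehydrogenase complex makes succinyl-CoA. Ogdh, its first enzyme, had signals of 1514 and 1228 (log2 ratio -0.30), and Dlst, its succinyl-transferring core, 1558 and 1570 (0.01). Of the other Dlst probe sets past the floor on each array, 1 had 487 and 162 (-1.59) and 1 had 175 and 130 (-0.43). The mean over all Dlst probe sets was -0.86, so this gene depended on the probe set chosen.

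Succinyl-CoA ligase pairs a shared alpha subunit with a beta subunit that sets whether ATP or GTP is made. The alpha subunit gene Suclg1 had signals of 2411 and 3383 (log2 ratio 0.49). Sucla2, the ATP-forming beta subunit, had 2437 and 3586 (0.56), while Suclg2, the GTP-forming one, had 1372 and 1165 (-0.24), and the other probe set of Suclg2 gave -1.14. Sucla2 thus stood 0.79 log2 units above Suclg2, with a range of 0.56 to 1.24 over the alternatives that gave both genes. As deposited the gap was past 0.68, which is only 1 SD of such a difference given the probe-set spread. It was below 1 SD with the loess trend removed (0.557) and with quantile normalization (0.562). Fh1, fumarate hydratase, had 2255 and 2545 (0.17), and Mdh2, the mitochondrial malate dehydrogenase, 7956 and 9950 (0.32).

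Idh1 and Idh2 are the NADP-linked isocitrate dehydrogenases of the cytosol and the mitochondrion. Idh1 had signals of 14506 and 20026 (log2 ratio 0.47), its other probe set gave 0.15, and after the loess trend was removed the ratio was 0.05. Idh2 had 1454 and 1447 (-0.01). The cytosolic malate dehydrogenase gene Mdh1, part of the malate-aspartate shuttle, had 7125 and 10020 (0.49), and the 3 of its probe sets that passed the floor on each array agreed (0.49 to 0.63). A further dim probe set of Mdh1 had 229 and 78.4. Glud1, which converts glutamate to 2-oxoglutarate, had 5362 and 5570 (0.05).

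**Figure D3:**
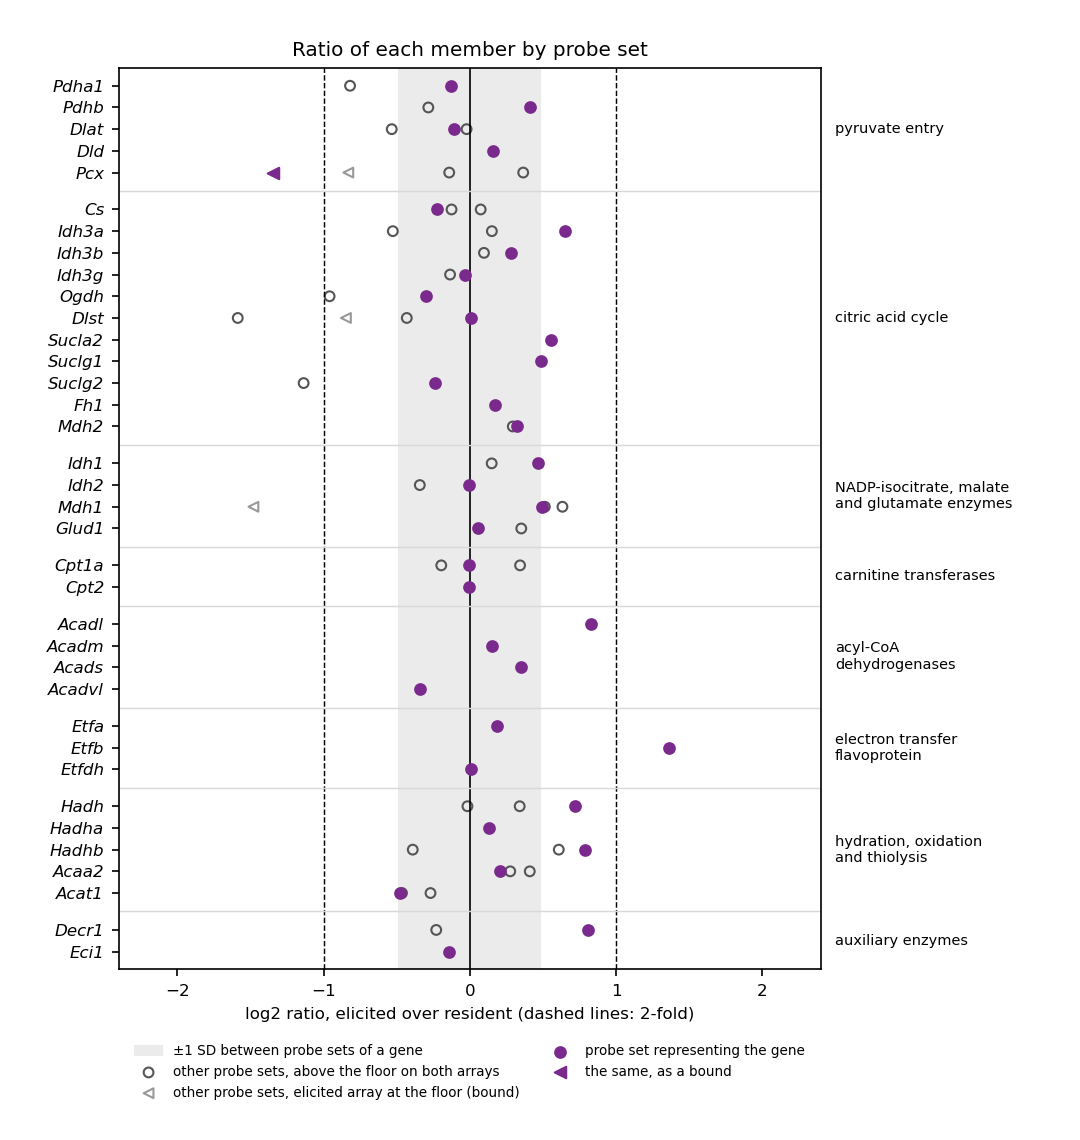
Log2 ratio of elicited over resident signal for each of the 36 genes by probe set, with filled symbols for the probe set that represents the gene, open symbols for the others, and triangles for bounds. The grey band is 1 SD of the spread between probe sets of a gene (0.48) and dashed lines mark 2-fold, with Etfb above 2-fold and Pcx below it, and the other probe sets of Dlst, Hadh and Decr1 standing apart from their gene's value.

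Fatty acid oxidation begins with the carnitine palmitoyltransferases, which pass long acyl chains into the matrix. Cpt1a, the rate-limiting outer membrane enzyme, had signals of 2798 and 2783 (log2 ratio -0.01), with 3 probe sets between -0.20 and 0.34. Cpt2, on the inner membrane, had 435 and 433 (-0.01). Signals on the 2 arrays were almost equal for both transferases as deposited. The acyl-CoA dehydrogenases then take the chains by length. Acadvl, for very long chains, had 1649 and 1304 (-0.34). Acadl, for long chains, had 4851 and 8616 (0.83, 1.78-fold), Acadm, for medium chains, 3520 and 3908 (0.15), and Acads, for short chains, 908 and 1160 (0.35). Acadl stood 0.76 to 1.17 log2 units above Acadvl over the alternatives tried, beside 0.68 for only 1 SD of such a difference. They had the highest and lowest ratios of these dehydrogenases as deposited, and each rested on 1 probe set above the floor.

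The electrons of these dehydrogenases pass to the electron transfer flavoprotein, a dimer of the Etfa and Etfb products, and on to ubiquinone through the product of Etfdh. Etfb had signals of 2189 in resident and 5632 in elicited cells, 2.57-fold higher (log2 ratio 1.36), and was the only one of the 36 genes at least 2-fold higher. Its partner Etfa had 3572 and 4064 (0.19), and Etfdh had 973 and 980 (0.01). The ratio of Etfb was 1.18 log2 units above that of Etfa, beside 0.68 for only 1 SD of such a difference. The gap was between 1.15 and 1.24 over the 13 settings, most of which left it unchanged. Under these settings Etfb itself lay between 1.03, on the hybridisation controls, and 1.67, with equal medians. Etfb and Etfa were each read by a lone probe set, so this gap has no second measurement.

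The 250 bases before the annotated starts of these partners are shown, since they form 1 protein and their ratios differed (RefSeq, GRCm38.p6). The Etfb window is chr7:43443822-43444071 on the plus strand and the Etfa window chr9:55512244-55512493 on the minus strand. No base is in capitals, since none of the motifs searched was in either window.
Etfb: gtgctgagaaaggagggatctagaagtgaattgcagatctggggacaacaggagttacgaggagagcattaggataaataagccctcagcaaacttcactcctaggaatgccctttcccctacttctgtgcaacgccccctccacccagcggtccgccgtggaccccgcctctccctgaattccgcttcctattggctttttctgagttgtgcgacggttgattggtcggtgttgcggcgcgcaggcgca
Etfa: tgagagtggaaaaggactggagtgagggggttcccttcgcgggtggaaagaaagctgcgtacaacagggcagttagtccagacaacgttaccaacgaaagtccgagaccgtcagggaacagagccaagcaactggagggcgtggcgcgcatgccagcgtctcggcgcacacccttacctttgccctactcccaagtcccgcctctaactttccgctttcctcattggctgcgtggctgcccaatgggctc

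The remaining steps of each round are hydration, oxidation and thiolysis. Hadha and Hadhb encode the alpha and beta subunits of the mitochondrial trifunctional protein, which carries out these steps on long chains. Hadha had signals of 1419 and 1556 (log2 ratio 0.13), read by 1 probe set. Hadhb had 3669 and 6322 (0.79, 1.72-fold), its next probe set 3131 and 4774 (0.61), and a dim one 118 and 90.4 (-0.39). The gap of 0.65 between the subunits was below the 0.68 that is 1 SD of such a difference, and it was 0.20 under the lowest alternative.

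Hadha and Hadhb lie head to head, with 272 bases between their annotated starts, so 228 bases of their 250-base upstream windows are the same DNA read from opposite strands. The Hadhb window is shown because it covers most of both (RefSeq, GRCm38.p6, chr5:30155003-30155252, plus strand), with capitals again marking GGGCGG.
Hadhb: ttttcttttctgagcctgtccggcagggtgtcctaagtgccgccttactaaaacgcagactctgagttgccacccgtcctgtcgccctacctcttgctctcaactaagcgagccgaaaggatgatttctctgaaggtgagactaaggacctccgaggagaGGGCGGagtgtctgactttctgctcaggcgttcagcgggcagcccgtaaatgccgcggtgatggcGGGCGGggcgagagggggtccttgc

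Motifs were searched on both strands of these windows for the 32 genes that the RefSeq table holds, and a match is a description of letters, not of binding. GGGCGG was in 22 of the 32 genes (68.8%) and in 35.4% of all 27025 genes in the table. The genes of the table were not matched to the 32 for GC content or expression. Hadha and Hadhb share a GGGCGG site, which counts for both. TCAAGGTCA and TNAAGGTCA, half-site forms of the oestrogen-related receptors, the first of which is contained in the other, were in 0 of 32 and in 0.422% and 1.30% of all genes. The PPAR and RXR element, a direct repeat of AGGTCA with 1 base between, was in 0 of 32 and in 0.0407% of all genes. CCGGAAGT, an ETS and GABP motif, was in Cpt2 and in 3.23% of all genes, and the palindromic NRF1 motif was in Etfdh and in 0.877% of all genes. Genes with several annotated starts had several windows, which raises their chance of a match.

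Hadh, which oxidises short-chain 3-hydroxyacyl-CoA, had signals of 3736 and 6141 (log2 ratio 0.72, 1.64-fold). A further bright probe set of Hadh had 2253 and 2228 (-0.02), so the bright probe sets of this gene were further apart than 0.68, 1 SD of such a difference. Acaa2, a thiolase of fatty acid oxidation, had 1428 and 1647 (0.21), and its 3 probe sets agreed (0.21 to 0.41). Acat1, the acetoacetyl-CoA thiolase also used in ketone body and isoleucine breakdown, had 1960 and 1405 (-0.48). It had the lowest ratio of the 36 genes after Pcx, and its 3 probe sets all pointed down (-0.48 to -0.27).

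Double bonds in natural fatty acids need auxiliary enzymes. Decr1, the mitochondrial dienoyl-CoA reductase, had signals of 1063 and 1860 (log2 ratio 0.81, 1.75-fold), but its other probe set had 400 and 341 (-0.23). Eci1, an enoyl-CoA isomerase, had 905 and 820 (-0.14). Taken by route, the 20 genes of the cycle and pyruvate entry had a median log2 ratio of 0.11 and the 16 of fatty acid oxidation 0.17. After the loess trend was removed the medians were 0.02 and 0.20.

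Probe sets of the same gene were the only check on these values. More than 1 probe set passed the floor on each array in 22 of the 36 genes, and in 13 of these all pointed the same way, while in 9 they did not. The pooled SD between probe sets was 0.41 for these genes, close to the 0.48 of all genes. The probe set that represents the gene was of a kind that can also bind other transcripts in 6 genes. These were Idh1, Idh3b and Suclg2, with names ending in _s_at, and Hadh, Hadhb and Mdh1, with names ending in _x_at.

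Other genes of the pathways were listed beside the 36. Of 103 such genes 92 had a probe set of their own, and 82 passed the floor. The elicited signal of 6 was higher and of 6 lower by 2-fold or more, together 14.6% of the 82 against 19.8% of all genes. As deposited 41 had a log2 ratio above 0 and 41 below. After the loess trend was removed 54 were above 0 and 28 below, with a median of 0.20. The rest of the cycle had 0 of 11 past 2-fold as deposited. The succinate dehydrogenase genes Sdha (4734 and 5086, log2 ratio 0.10), Sdhb (0.05), Sdhc (0.47) and Sdhd (0.50) were all within 2-fold. Aco1, the cytosolic aconitase and iron regulatory protein, was 1.74-fold higher, Got2 1.53-fold higher, Me1 1.78-fold lower and Nnt 1.67-fold lower.

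Several genes that feed or regulate the routes were past 2-fold. Mpc1, a subunit of the mitochondrial pyruvate carrier, had signals of 6131 and 15028 (2.45-fold higher). Pdp1, the phosphatase that activates pyruvate dehydrogenase, had 313 and 1781 (5.70-fold higher), and its 2 probe sets agreed (log2 ratios of 2.41 and 2.51). Pdpr, which restrains that phosphatase, had 875 and 391 (2.23-fold lower). Of 8 such genes these 3 (37.5%) were past 2-fold as deposited, against 19.8% of all genes. Mpc1 was past it in 7 of the 10 settings that gave it a value (the deposited one included) and Pdpr in 8 of 11. The kinase gene Pdk2 had 128 and 50.9 (at least 1.56-fold lower), and Pdk4 was below the floor on both arrays.

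Among 10 genes of fatty acid uptake, activation and the carnitine shuttle, Slc27a1, the fatty acid transport protein FATP1, had signals of 322 and 1696 (5.27-fold higher), with 2 probe sets in agreement. The others were within 2-fold as deposited, which left 10% of the list past it. Cd36, a scavenger receptor that takes up fatty acids, had 20401 and 35337 (1.73-fold higher). Its 3 probe sets gave log2 ratios of 0.79 to 1.52, and Cd36 was past 2-fold in 3 of 11 settings. Acsl4 was 1.59-fold lower, with 3 probe sets between -1.34 and -0.38, and was past 2-fold in 1 of 11. The carnitine carrier gene Slc25a20 was 1.33-fold higher. Of 14 other mitochondrial beta-oxidation genes, Ech1, a dienoyl-CoA isomerase, was 2.32-fold and Hsd17b10 2.03-fold higher, and Eci2 was 1.79-fold lower. Ech1 and Hsd17b10 made up 14.3% of that list. Hsd17b10 was past 2-fold in 6 of 11 settings and Ech1 in 10.

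Of 9 peroxisomal genes, 1 (11.1%) was past 2-fold, the lower Abcd2, a transporter of very long chains (1250 and 493, 2.54-fold). Of 4 measured ketone body genes, Oxct1, which starts the use of ketone bodies, was 1.81-fold higher, and Bdh1 and Aacs were also within 2-fold. Bdh2 was below the floor in resident cells and had a signal of 103 in elicited cells, so its difference of at least 1.26-fold is a lower bound and may exceed 2-fold. Acod1, which diverts the cycle intermediate cis-aconitate into itaconate, had signals of 3143 in resident and 238 in elicited cells (13.2-fold lower). Acly, which splits exported citrate, had 12254 and 4543 (2.70-fold lower), while the aspartate-glutamate carrier gene Slc25a13 was 1.82-fold higher.

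Above the floor were 14 transcriptional regulators of oxidative metabolism. Of these 1 was higher and 2 were lower by 2-fold or more (21.4% together, against 19.8% of all genes). As deposited 12 had a log2 ratio below 0, as had 51.9% of all genes. After the loess trend was removed 8 of the 14 were below 0. Pparg, the nuclear receptor that responds to fatty acids, had signals of 85.5 and 2030. The resident value was just above the floor and below the 92.7 that the same percentile gave on the resident array alone, so its fold is a bound, at least 21.9-fold higher against that level and at least 11.6-fold higher against the 99th percentile. Ppargc1b, a coactivator of mitochondrial genes, had 688 and 210 (3.27-fold lower), and Hif1a, the oxygen-responsive factor, 13212 and 5332 (2.48-fold lower). Esrra (834 and 779), Ppard (342 and 233) and Gabpa (1.81-fold lower) were within 2-fold, Ppara was above the floor on the resident array alone (91.1 and 37.7), and Ppargc1a on neither.

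**Figure D4:**
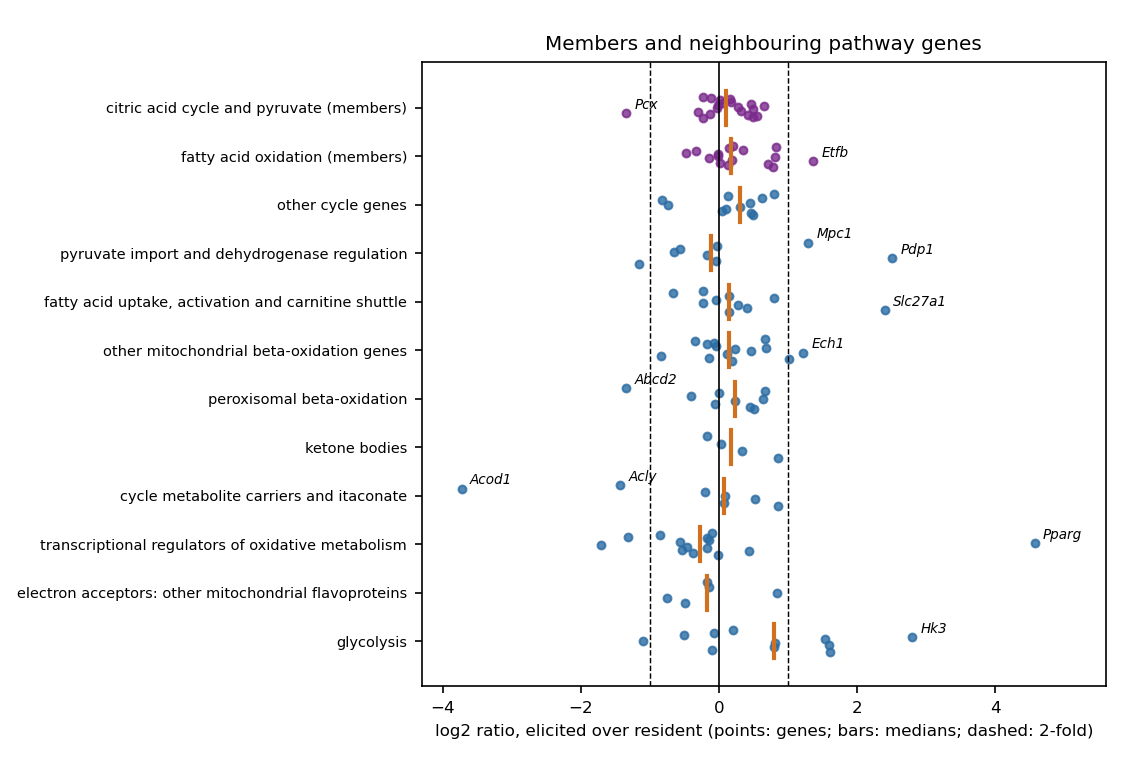
Log2 ratio of elicited over resident signal of the 36 genes, in their 2 routes, and of the other lists of pathway genes and glycolysis, with 1 point per gene above the floor, bars for medians and dashed lines for 2-fold. The 36 genes lie between the 2-fold lines but for Etfb and Pcx, while Pdp1, Slc27a1, Pparg and Acod1 lie far outside them.

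Neighbouring routes were set beside the 36 genes, with no test, and both lists were chosen after their values were seen. Of 73 respiratory chain subunit genes above the floor, 70 had a log2 ratio above 0, against 5527 of all 11499 genes. Their median was 0.61 as deposited and 0.30 after the loess trend was removed. The medians of the 36 genes were 0.16 and 0.04 in the same settings, and those of all genes -0.03 and 0.07. Of 11 glycolytic genes 4 were higher and 1 lower by 2-fold or more (45.5% together, against 19.8% of all genes), with medians of 0.80 and 0.46. Ldha, lactate dehydrogenase A, had signals of 6599 and 19087 and Tpi1, triosephosphate isomerase, 4353 and 13306. Hk3, a hexokinase of myeloid cells, was 6.97-fold higher and Pfkl, a phosphofructokinase, 2.15-fold lower.

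Where the ratios of the 36 genes lay depended on the scaling. Their median log2 ratio was 0.46 when the arrays were set to equal medians and -0.18 when they were scaled on the spiked hybridisation controls, which were 1.26-fold higher on the elicited array. The median of all genes moved with it, to 0.24 and -0.34. The median of the 36 genes was thus 0.22 and 0.16 above that of all genes, beside 0.19 as deposited. The direction of the small ratios moved too, with 33 of the 36 genes above 0 at equal medians and 12 on the hybridisation controls, against 23 as deposited. With quantile normalization the median of the 36 genes (0.10) was below that of all genes (0.16), as it was with the loess trend removed (0.04 and 0.07).

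**Figure D5:**
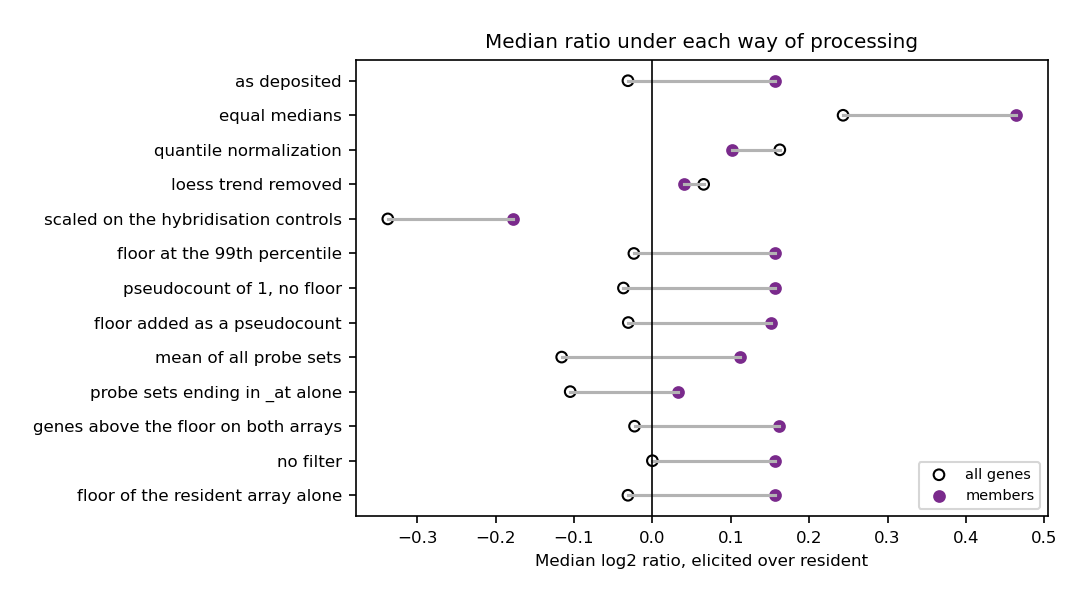
Median log2 ratio of elicited over resident signal of the 36 genes (filled) and of all genes in the same setting (open), under the deposited values and each alternative. The median of the 36 genes lies above that of all genes in most settings and below it with quantile normalization and with the loess trend removed.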

How the data were processed

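The deposited values are linear signal intensities of 45101 probe sets on 2 arrays, which the submitters' processing notes credit to MAS5. The version and scaling target are not stated in them. The 2%-trimmed mean signal was 500.003 and 500.004, so both arrays had been scaled to a common level, and no further normalization was applied for the main values. Genes were named from the platform annotation. Of 34945 probe sets with 1 gene, 34741 took a current symbol through the gene ID (RefSeq, GRCm38.p6). Several genes were listed for 932 and none for 9211.

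The floor was the 95th percentile of 252 values of 126 probe sets for olfactory, vomeronasal and taste receptors and keratin-associated proteins. Control probe sets were left out, except 4 that the annotation assigns to Pcx. Named genes were all 36 enzymes, up to 4 genes with the largest ratio in each other list, and a fixed set of regulators; further ones were chosen after their values were seen, as were the respiratory chain and glycolysis lists. The members and lists were chosen with earlier results of these data known. No test was run, as each group has 1 array. The code was run on a simulated pair of 10957 genes whose noise had the SD of probe sets. There 48 of 50 genes raised 4-fold and 50 of 50 lowered 4-fold passed 2-fold, as did 386 of 10757 unchanged genes (3.59%). These shares follow from the SD put in, which holds no variation between animals or cultures, so they are not error rates of the real comparison. Alternatives changed the scaling, the floor, the probe sets and the filter. Python 3.11.15, numpy 2.4.6, pandas 2.3.3 and statsmodels 0.14.6 (loess span 0.4) were used.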

Additional observations from a re-analysis of the deposited data

How the results depend on the processing

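The count of genes at least 2-fold higher was 1 under 11 of the 12 alternatives and 5 with equal medians, where Acadl, Decr1, Hadh and Hadhb joined Etfb. The count at least 2-fold lower was 1 or, with the floor at the 99th percentile, the mean of all probe sets, probe sets ending in _at alone, or genes above the floor on both arrays, 0, since Pcx no longer passed or was no longer measured. The median log2 ratio of the 36 genes ranged from -0.18 on the hybridisation controls to 0.46 with equal medians, and that of all genes from -0.34 to 0.24. The median of the 36 genes thus changed sign with the scaling, and 12 to 33 of them were above 0. Among all genes past 2-fold the share that was higher in elicited cells was 40.5% in the deposited values. It was 19.7% when scaled on the hybridisation controls, 50.1% without the loess trend, 57.9% after quantile normalization and 65.7% at equal medians. With the mean of all probe sets Idh3a (0.09), Dlst (-0.86), Decr1 (0.29) and Pcx (-0.64) moved by more than the probe-set SD of 0.48, as did Idh3a (-0.53) and Hadh (-0.02) with probe sets ending in _at alone. The floor of the resident array alone was added after the data were seen and left both counts at 1. No paired analysis was possible because each group has 1 array. Signals near the floor of 82.2 limit Pcx, Pparg and Ppara.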

Other observations

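The dimmer probe sets of these enzymes tended to read lower on the elicited array than the brighter ones. Among the 33 probe sets that do not represent their gene and were above the floor on both arrays, 16 had a mean log2 signal under 9 (a signal of 512), and 12 of these had a log2 ratio below 0, with a median of -0.37. The other 17 had a median of 0.10. All probe sets of named genes above the floor on both arrays showed the same order, with a median of -0.28 for 7964 dim ones and 0.03 for 9210 bright ones.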
